A study of Homo sapiens with 4 samples.

Results

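The 46 genes described here encode the machinery that builds autophagosomes and the receptors that select cargo for them. They were taken as a list of symbols, by a rule with no threshold on measured values, out of 56865 genes of the GENCODE 29 annotation. RNA-seq was made from MDA-MB-468, an established human triple-negative breast cancer line, at passage 12. Both groups were of this unmodified line, with cells seeded on 10 cm dishes in duplicate. The 2 MS1943 libraries came from cells given 5 µM MS1943 for 3 days, and the 2 DMSO libraries came from cells given the vehicle. MS1943 is a small-molecule degrader of EZH2, the histone methyltransferase of Polycomb repressive complex 2, and the comparison asks which transcripts change when cells are exposed to it. The titles carry several letters for each MS1943 library and a single letter for each DMSO library, and the labels do not say what the letters stand for. Nothing in the labels says beyond the duplicate dishes how far the replicates are independent, so the p-values measure the spread between these libraries, which may be technical.

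Macroautophagy encloses cytoplasmic material in a double membrane and delivers it to the lysosome. The ULK1 kinase complex starts the process, a lipid kinase complex makes PI3P on the forming membrane, and ubiquitin-like conjugation attaches ATG8 proteins (the LC3 and GABARAP families) to its lipids. Cargo receptors bind both the cargo and the ATG8 proteins and are themselves degraded along with it, so mRNA levels say nothing of how much material passes through the pathway. TFEB, TFE3 and MITF, the MiT/TFE factors, are transcription factors that mTORC1 keeps in the cytoplasm in fed cells and that activate lysosomal and autophagy genes.

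The libraries held 69878745 and 47564377 estimated reads in the MS1943 group and 64720699 and 71378893 in the DMSO group. The share of reads from genes encoded in mitochondrial DNA was 3.52% and 3.11% in the MS1943 libraries, against 1.65% and 1.78% in the DMSO libraries, and its part in the results was not tested. All 9 epithelial breast markers were detected, with a summed level of 9839 and 9387 TPM in the MS1943 libraries, against 8067 and 8230.3 TPM in the DMSO libraries. These markers moved both ways: KRT5, KRT14, KRT17 and EGFR were called higher, CDH1, KRT8 and KRT19 lower, and EPCAM and KRT18 neither. The 5 leukocyte markers summed to 96.1 and 103 TPM in the MS1943 libraries, against 187 and 189.5 TPM in the DMSO libraries, nearly all of it CD14, with PTPRC, CD3E and LYZ each under 1 TPM in every library. The 5 fibroblast markers summed to 18.0 and 15.2 TPM in the MS1943 libraries, against 12.7 and 10.7 TPM in the DMSO libraries, nearly all COL1A1, and the 4 endothelial markers summed to 0.880 and 0.726 TPM against 2.31 and 2.11 TPM. PGR, the progesterone receptor gene, was at 0 in all 4 libraries, where 3 reads would stand for 0.0422 to 0.0634 CPM, a limit that covers counting error only. Of the other receptor genes of the triple-negative class, ESR1 had 1.16 and 1.08 TPM with MS1943, against 1.08 and 0.851 TPM with DMSO, and ERBB2 had 22.4 and 21.3 TPM with MS1943, against 31.6 and 32.9 TPM with DMSO. In bulk RNA, fewer cells of a type and less RNA per cell cannot be told apart.

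Most of the autophagy genes were higher after MS1943. Levels within a gene are given as CPM, estimated reads set relative to library size with TMM scaling factors, and levels between genes as TPM, which is also per transcript length, and a gene was called changed at an adjusted p under 0.05 in the quasi-likelihood test of edgeR, adjusted by the Benjamini-Hochberg method over all 19358 genes tested. Of the 46 genes, 45 passed the filter on low counts, and 35 of these rose, 3 fell and 7 were not called. Over all genes tested, 30.0% were called higher and 29.4% lower, 59.3% in all. The fitted log2 fold changes of the 45 genes ran from -0.48 to 2.21 with a median of 0.49, beside a median of -0.01 over all genes tested. A rise of at least 2-fold was found for 11 of the 45 and a fall of that size for 0, where 7.97% and 7.93% of all genes tested rose or fell that far. Scaling by total reads alone moved the median of all genes to -0.12 and gave 4619 higher and 6973 lower genes in place of 5799 and 5689, while among the autophagy genes it gave 28 higher and 5 lower, with a median of 0.38. MAP1LC3A, an LC3 gene, did not pass the filter, with 0.0669 and 0.0429 TPM in the MS1943 libraries and 0.0988 and 0.0985 TPM in the DMSO libraries.

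**Figure D1:**
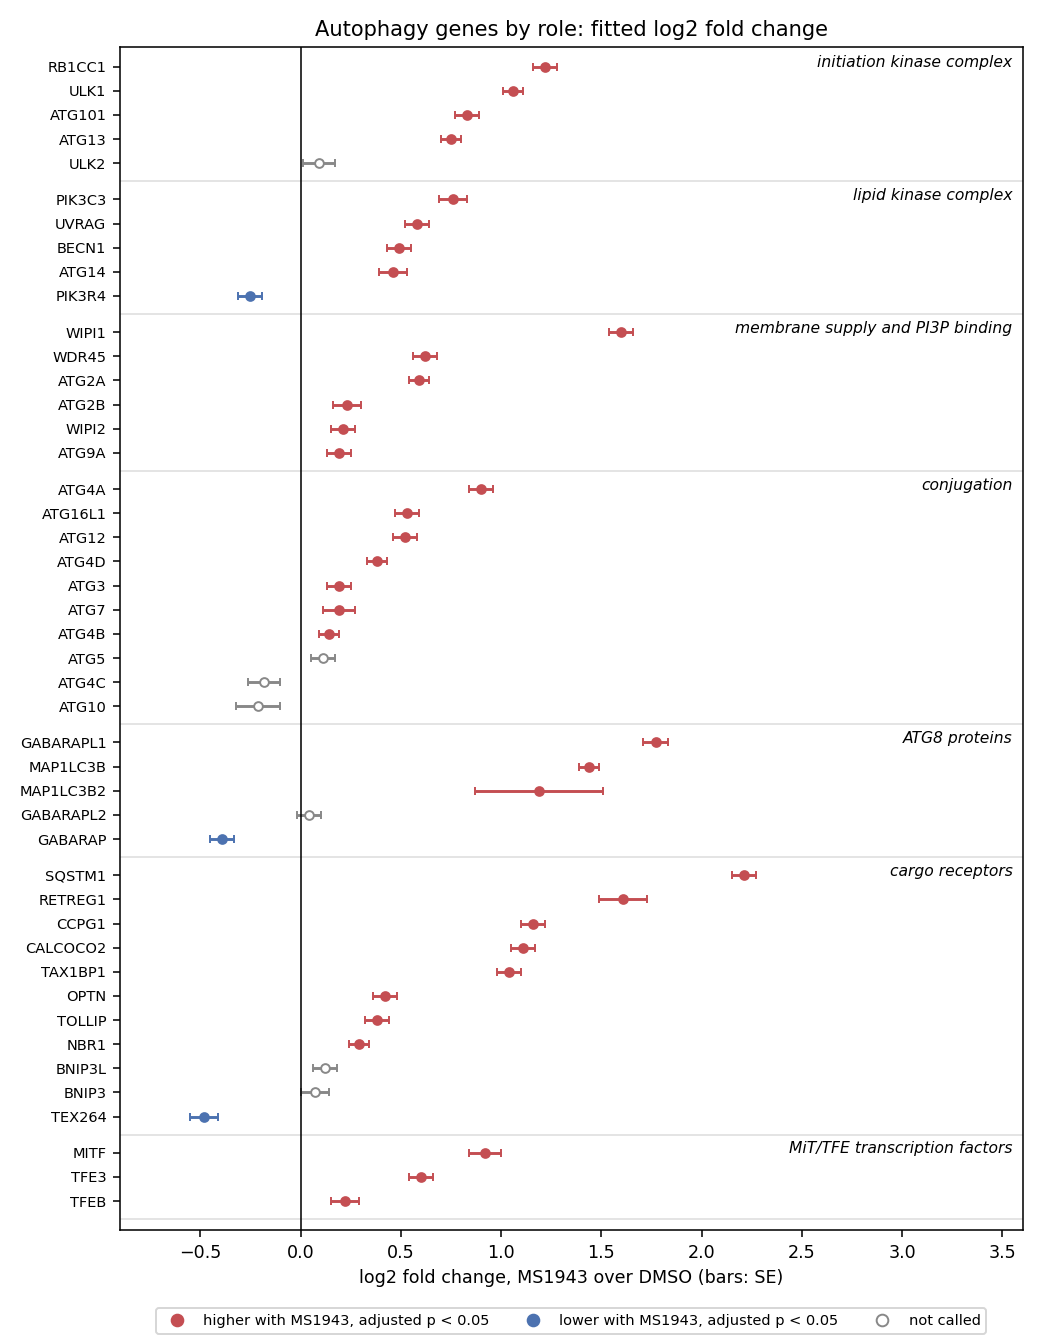
Fitted log2 fold change, MS1943 over DMSO, of the 45 tested autophagy genes grouped by role, over 2 MS1943 and 2 DMSO libraries. Bars are 1 approximate SE, derived from the fold change and the F statistic of the edgeR test. Filled points passed the adjusted p threshold; SQSTM1 stands at 2.21 and TEX264 at -0.48.

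Most genes of the initiation kinase complex rose. Of its 5 genes, 4 rose, 0 fell and ULK2 was not called, with a median log2 fold change of 0.83. RB1CC1, the FIP200 scaffold of the complex, had 142 and 155 CPM in the MS1943 libraries, against 64.3 and 63.0 CPM in the DMSO libraries. ULK1, the catalytic kinase (chr12:131894651-131923167, plus strand, hg38), had 87.3 and 86.4 CPM in the MS1943 libraries, against 41.7 and 41.9 CPM in the DMSO libraries. RB1CC1 thus rose 2.33-fold, a log2 fold change of 1.22 ± 0.06 (SE, here and below; adjusted p = 1.09e-12), and ULK1 rose 2.08-fold (1.06 ± 0.05, adjusted p = 4.37e-12). ATG101, which binds and stabilises ATG13, had 92.8 and 83.5 CPM with MS1943, against 50.8 and 48.8 CPM with DMSO (log2 fold change 0.83 ± 0.06, adjusted p = 6.70e-10). ATG13, the adaptor between kinase and scaffold, had 111 and 109 CPM with MS1943, against 65.2 and 65.3 CPM with DMSO (0.75 ± 0.05, adjusted p = 4.57e-10). For none of these 4 genes did the groups overlap. How many of all genes tested also lacked overlap was not counted, here or below, so a lack of overlap only describes the values. ULK2, the second kinase, had 14.5 and 17.1 CPM with MS1943, against 15.2 and 14.4 CPM with DMSO, so that the groups overlapped (0.09 ± 0.08, adjusted p = 0.405). Per length, the summed level of the 5 genes was 254 and 246 TPM in the MS1943 libraries, against 151 and 159 TPM in the DMSO libraries, and ULK2 made 2.83% and 2.47% of it with MS1943, against 4.35% and 4.60% with DMSO.

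The lipid kinase genes rose except for that of the regulatory subunit, which fell. Of the 5 genes, 4 rose and 1 fell, with a median log2 fold change of 0.49. PIK3C3, the catalytic subunit VPS34, had 33.2 and 35.7 CPM in the MS1943 libraries, against 21.2 and 19.5 CPM in the DMSO libraries (0.76 ± 0.07, adjusted p = 1.42e-08). PIK3R4, the VPS15 subunit that VPS34 needs for activity, had 41.9 and 43.6 CPM with MS1943, against 52.5 and 49.5 CPM with DMSO (-0.25 ± 0.06, adjusted p = 0.000969). These subunits of the same complex therefore moved in opposite directions, each with groups that did not overlap. UVRAG, the subunit of the endosomal form of the complex, had 48.9 and 52.1 CPM with MS1943, against 33.3 and 34.2 CPM with DMSO (0.58 ± 0.06, adjusted p = 8.18e-08). BECN1, the Beclin 1 subunit, had 53.0 and 52.7 CPM with MS1943, against 39.7 and 35.6 CPM with DMSO (0.49 ± 0.06, adjusted p = 1.45e-06). ATG14, which directs the complex to the autophagosome site, had 17.5 and 17.8 CPM with MS1943, against 12.9 and 12.8 CPM with DMSO (0.46 ± 0.07, adjusted p = 2.84e-05). Per length PIK3R4 made 10.4% and 10.6% of the summed TPM of the 5 genes with MS1943, against 18.1% and 18.3% with DMSO, while BECN1 held the largest share of the 5 in all 4 libraries. BECN1 overlaps PSME3 on the opposite strand, with 9444 reads on average for PSME3 beside 2804 for BECN1. Libraries of this kind carry no strand information, so reads from the overlap could belong to either gene.

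The genes for membrane supply and PI3P binding all passed the test as higher, with a wide range of sizes. Of 6 genes, 6 rose, with a median of 0.41 and a range from 0.19 to 1.60. WIPI1, a PI3P-binding protein (chr17:68420948-68457513, minus strand, hg38), stood apart from the rest, with 75.3 and 78.1 CPM in the MS1943 libraries, against 25.2 and 25.4 CPM in the DMSO libraries (1.60 ± 0.06, adjusted p = 2.15e-14). Its close relative WIPI2, which recruits ATG16L1, had 119.5 and 128 CPM with MS1943, against 109.8 and 104 CPM with DMSO (0.21 ± 0.06, adjusted p = 0.00349). Per length, WIPI1 averaged 96.4 ± 5.0 TPM with MS1943 and 37.1 ± 1.8 TPM with DMSO (SD, n = 2 each), and WIPI2 averaged 84.8 ± 5.6 TPM with MS1943 and 76.9 ± 0.76 TPM with DMSO. WIPI2 was thus the higher of the pair in DMSO cells, whereas with MS1943 WIPI1 was above it in both libraries, at 92.9 and 99.9 TPM against 80.9 and 88.8 TPM. WDR45, the family member WIPI4, had 39.4 and 37.7 CPM with MS1943, against 25.4 and 24.9 CPM with DMSO (0.62 ± 0.06, adjusted p = 5.96e-08). ATG2A, a lipid transfer protein, had 125 and 123 CPM with MS1943, against 82.4 and 81.9 CPM with DMSO (0.59 ± 0.05, adjusted p = 1.27e-08). ATG2B, its paralog, changed less, with 20.2 and 20.3 CPM with MS1943, against 17.4 and 17.2 CPM with DMSO (0.23 ± 0.07, adjusted p = 0.00773). ATG2B overlaps GSKIP on the opposite strand, with 1904 reads on average beside 1177. WDR45 overlaps PRAF2 on the same strand, with 747 reads on average beside 1970. ATG9A, the lipid scramblase of the seed vesicles, had 108 and 99.9 CPM with MS1943, against 95.3 and 87.3 CPM with DMSO (0.19 ± 0.06, adjusted p = 0.0109). The calls of ATG2B, WIPI2 and ATG9A ended when libraries were scaled by total reads alone (adjusted p = 0.134, 0.112 and 0.220). Leaving out MS1943 replicate 1 gave 0.12 for ATG9A (adjusted p = 0.173), and leaving out DMSO replicate 2 gave the same size (adjusted p = 0.0812), while WIPI2 had 0.15 without MS1943 replicate 2 (adjusted p = 0.0658).

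In the conjugation machinery the changes were smaller and less uniform. Of 10 genes, 7 rose, 0 fell and 3 were not called, with a median log2 fold change of 0.19. ATG4A, a protease that trims and releases ATG8 proteins, moved most, with 41.8 and 40.7 CPM in the MS1943 libraries, against 22.5 and 21.7 CPM in the DMSO libraries (0.90 ± 0.06, adjusted p = 2.92e-10). ATG16L1, which places the conjugation complex on the membrane, had 53.0 and 50.0 CPM with MS1943, against 35.7 and 35.7 CPM with DMSO (0.53 ± 0.06, adjusted p = 2.30e-07). ATG12, the ubiquitin-like protein of that complex, had 56.5 and 57.3 CPM with MS1943, against 42.2 and 37.3 CPM with DMSO (0.52 ± 0.06, adjusted p = 7.91e-07). ATG5, to which ATG12 is joined, did not pass the test and its groups overlapped, with 83.1 and 86.1 CPM with MS1943, against 83.2 and 73.9 CPM with DMSO (0.11 ± 0.06, adjusted p = 0.142; without DMSO replicate 1, 0.19 and adjusted p = 0.00471). ATG4D had 123 and 125 CPM with MS1943, against 95.9 and 95.2 CPM with DMSO (0.38 ± 0.05, adjusted p = 4.68e-06). ATG4C had 17.7 and 18.1 CPM with MS1943, against 21.5 and 19.0 CPM with DMSO (-0.18 ± 0.08, adjusted p = 0.0544; without DMSO replicate 2, -0.27 and adjusted p = 0.00301). ATG4B had the smallest called rise of the 7, at 0.14 ± 0.05 (adjusted p = 0.0262). Genes on the opposite strand overlap ATG4D (KRI1), ATG12 (AP3S1) and ATG4B (THAP4), with mean reads at 191%, 88.3% and 63.1% of the gene's own.

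The enzymes that activate and pass on the ubiquitin-like proteins had fold changes of small size. ATG3, the E2-like enzyme for ATG8 proteins, had 79.6 and 82.5 CPM in the MS1943 libraries, against 73.6 and 68.0 CPM in the DMSO libraries (0.19 ± 0.06, adjusted p = 0.00656). ATG7, the E1-like enzyme, had 16.5 and 16.4 CPM with MS1943, against 15.0 and 14.0 CPM with DMSO (0.19 ± 0.08, adjusted p = 0.0389). ATG3 and ATG7 overlap SLC35A5 and VGLL4 on the opposite strand, with 1512 and 3428 reads on average beside 4752 and 972. ATG10, the E2-like enzyme for ATG12, had 5.39 and 5.49 CPM with MS1943, against 6.08 and 6.52 CPM with DMSO (-0.21 ± 0.11, adjusted p = 0.106), and it overlaps RPS23 on the opposite strand, which had 24471 reads on average beside 375 for ATG10. The TPM of ATG7 and ATG4B ran the other way from their CPM, with 14.5 and 14.5 TPM for ATG7 with MS1943, against 15.2 and 14.8 TPM with DMSO. ATG4B had 80.8 and 82.6 TPM with MS1943, against 86.3 and 86.5 TPM with DMSO. TPM is not TMM-scaled and also reflects which transcript lengths the reads were assigned to. With a correction for transcript length the calls of ATG3 (0.13, adjusted p = 0.107), ATG7 (0.05, adjusted p = 0.654) and ATG4B (0.02, adjusted p = 0.762) ended. Scaling by total reads gave 4 higher and 2 lower genes among the 10. Leaving out MS1943 replicate 2 ended the calls of ATG3 (adjusted p = 0.0533), ATG4B (0.0875) and ATG7 (0.115), and leaving out DMSO replicate 2 did so as well (0.0615, 0.0548 and 0.209), so that 4 of the 10 were called higher with either of these left out. Without MS1943 replicate 1 the calls of ATG4B (adjusted p = 0.137) and ATG7 (adjusted p = 0.157) ended.

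The ATG8 family split by member, so that the shares of its members differed between the groups. Of 6 genes 5 were tested; 3 rose, GABARAP fell and GABARAPL2 was not called. GABARAPL1 (chr12:10212458-10223130, plus strand, hg38) had 188 and 196 CPM in the MS1943 libraries, against 57.3 and 55.0 CPM in the DMSO libraries, a 3.41-fold rise (1.77 ± 0.06, adjusted p = 4.02e-15). MAP1LC3B, which encodes the LC3B protein widely used to mark autophagosomes (chr16:87383995-87404779, plus strand, hg38), had 173 and 177 CPM with MS1943, against 65.5 and 63.2 CPM with DMSO, a 2.72-fold rise (1.44 ± 0.05, adjusted p = 4.80e-14). GABARAP (chr17:7240014-7242770, minus strand, hg38) had 93.4 and 92.0 CPM with MS1943, against 128 and 115 CPM with DMSO, a 1.31-fold fall (-0.39 ± 0.06, adjusted p = 1.20e-05). In none of these 3 genes did the groups overlap, and the DMSO libraries of GABARAP lay further apart than its MS1943 libraries. GABARAPL2 had 78.6 and 83.6 CPM with MS1943, against 82.8 and 75.0 CPM with DMSO, so that its groups overlapped (0.04 ± 0.06, adjusted p = 0.605). MAP1LC3B2, a near-identical copy of MAP1LC3B whose reads Salmon cannot cleanly separate from it, had 0.707 and 1.01 CPM with MS1943, against 0.380 and 0.360 CPM with DMSO (1.19 ± 0.32, adjusted p = 0.00327; without MS1943 replicate 2, 0.92 and adjusted p = 0.0622). MAP1LC3B also overlaps FBXO31 on the opposite strand, with 2670 reads on average beside 7159.

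Per length, the summed level of the 6 ATG8 genes was 668 and 719.9 TPM in the MS1943 libraries, against 649 and 604 TPM in the DMSO libraries. GABARAP was the most abundant member in every library, with 37.8% and 34.8% of the sum with MS1943, against 58.5% and 58.0% with DMSO. GABARAPL1 held 25.4% and 29.1% with MS1943, against 10.4% and 9.98% with DMSO. MAP1LC3B held 15.7% and 15.1% with MS1943, against 6.38% and 7.27% with DMSO. In DMSO cells GABARAPL2, at 154 ± 7.9 TPM, ranked second and GABARAPL1, at 63.8 ± 5.1 TPM, came next (SD, n = 2 each). With MS1943 GABARAPL1 ranked second, at 169.8 and 209 TPM, above GABARAPL2 at 139 and 148 TPM, and these values did not overlap.

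**Figure D2:**
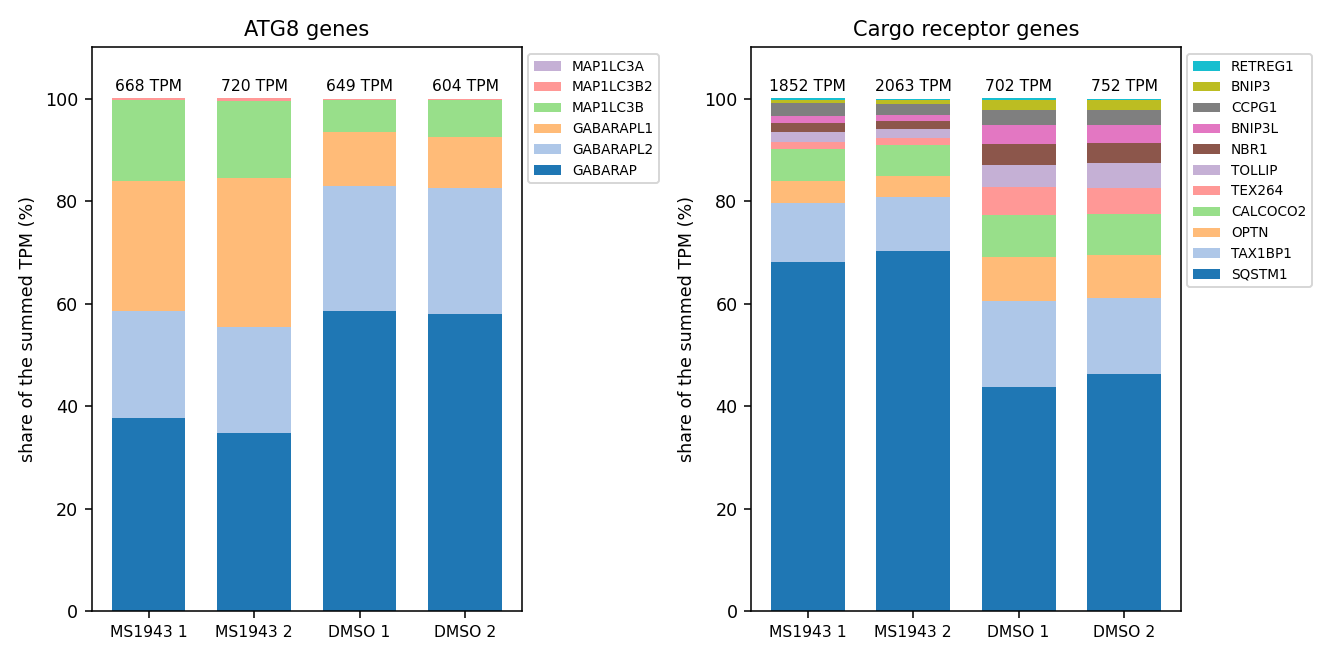
Share of the summed TPM held by each gene in each of the 4 libraries, for the 6 ATG8 genes (left) and the 11 cargo receptor genes (right), with the sum in TPM above each bar. GABARAP holds 37.8% and 34.8% of the ATG8 sum with MS1943, against 58.5% and 58.0% with DMSO, and SQSTM1 holds 68.1% and 70.3% of the receptor sum, against 43.7% and 46.3%.

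The promoters of these 3 ATG8 genes are shown because the genes of 1 family moved in different directions; each window runs from 250 bases before to 50 bases after the RefSeq start (GRCh38.p14), is written 5′ to 3′ along the gene's strand, and has capitals where a searched motif matched. The windows are GABARAPL1 at chr12:10212627-10212926 (plus strand), MAP1LC3B at chr16:87392086-87392385 (plus strand) and GABARAP at chr17:7242400-7242699 (minus strand).
GABARAPL1: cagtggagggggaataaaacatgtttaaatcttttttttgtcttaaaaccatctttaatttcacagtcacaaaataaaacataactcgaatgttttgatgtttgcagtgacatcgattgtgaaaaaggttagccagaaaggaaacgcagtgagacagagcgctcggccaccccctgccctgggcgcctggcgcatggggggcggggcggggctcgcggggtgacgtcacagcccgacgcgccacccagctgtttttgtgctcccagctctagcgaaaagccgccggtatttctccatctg
MAP1LC3B: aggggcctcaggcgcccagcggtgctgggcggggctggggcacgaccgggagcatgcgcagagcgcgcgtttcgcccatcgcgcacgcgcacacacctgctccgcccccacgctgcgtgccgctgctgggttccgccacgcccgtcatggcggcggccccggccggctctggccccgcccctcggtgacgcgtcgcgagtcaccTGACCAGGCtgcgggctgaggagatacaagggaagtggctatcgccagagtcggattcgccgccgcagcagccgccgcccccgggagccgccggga
GABARAP: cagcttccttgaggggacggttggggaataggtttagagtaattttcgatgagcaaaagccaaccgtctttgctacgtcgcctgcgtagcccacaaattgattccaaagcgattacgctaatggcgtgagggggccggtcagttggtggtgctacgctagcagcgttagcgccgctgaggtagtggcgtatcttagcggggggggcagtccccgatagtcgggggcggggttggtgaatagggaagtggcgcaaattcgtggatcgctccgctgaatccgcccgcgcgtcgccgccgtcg
The capitals in MAP1LC3B mark a match to TGACNNNGC, the core letters of the antioxidant response element, whose first base lies 46 bases before the start. The other 2 windows held none of the 4 motifs searched.

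RefSeq promoter windows were at hand for 41 of the 46 genes, 55 windows in all with those of alternative starts; ATG4D, BNIP3L, MAP1LC3A, RB1CC1 and UVRAG had none. Motifs were searched on both strands and compared with all 35116 windows of the same length in the table. The E-box CACGTG, the core of the sequence that MiT/TFE factors bind, was found in 3 of the 55 windows, those of ATG14, ATG3 and BNIP3, which is 5.5% beside 7.3% of all windows. TGACNNNGC was found in 5 windows, those of ATG101, CALCOCO2, MAP1LC3B, the second start of RETREG1 and TOLLIP, which is 9.1% beside 13.3%. TGATGNAA, the composite element of ATF4 and CHOP, was found in 1 window, that of WDR45, which is 1.8% beside 3.6%. GTAAACA, a forkhead element, was found in the windows of CALCOCO2 and WDR45, which is 3.6% beside 3.4%, and in WDR45 it overlaps the TGATGNAA match. No motif was thus more frequent in these windows by more than a fraction of a percentage point, and a match or its lack says only which letters the window holds.

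Among the cargo receptors SQSTM1 dominated both the level and the change. Of 11 genes, 8 rose, TEX264 fell, and BNIP3L and BNIP3 were not called, with a median log2 fold change of 0.42. SQSTM1, the ubiquitin-binding receptor p62 (chr5:179806398-179838078, plus strand, hg38), had 1719.8 and 1821 CPM in the MS1943 libraries, against 383 and 382 CPM in the DMSO libraries. This 4.63-fold rise was the largest of the 45 tested autophagy genes (2.21 ± 0.06, adjusted p = 1.01e-15). SQSTM1 overlaps MGAT4B on the opposite strand, with 18065 reads on average beside 62884 for SQSTM1. The other ubiquitin-binding receptors rose by smaller amounts. CALCOCO2, the receptor NDP52, had 108 and 116 CPM with MS1943, against 54.4 and 49.2 CPM with DMSO (1.11 ± 0.06, adjusted p = 1.03e-11). TAX1BP1, its relative, had 402 and 412 CPM with MS1943, against 208 and 188 CPM with DMSO (1.04 ± 0.06, adjusted p = 2.52e-11). OPTN, optineurin, had 92.0 and 93.2 CPM with MS1943, against 72.7 and 65.8 CPM with DMSO (0.42 ± 0.06, adjusted p = 4.31e-06). NBR1, which acts with p62 in aggregate clearance, and TOLLIP, a ubiquitin-binding adaptor, had called rises of 0.29 and 0.38, and the call of TOLLIP ended with a correction for transcript length (0.23, adjusted p = 0.0751).

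The receptors for the endoplasmic reticulum diverged. RETREG1 (FAM134B), a reticulon-like protein that bends the membrane of that organelle, had 10.7 and 12.1 CPM in the MS1943 libraries, against 4.13 and 3.31 CPM in the DMSO libraries, a 3.06-fold rise (1.61 ± 0.12, adjusted p = 7.27e-10). CCPG1, a receptor known to be induced by stress of the endoplasmic reticulum, had 105 and 111 CPM with MS1943, against 50.1 and 46.3 CPM with DMSO (1.16 ± 0.06, adjusted p = 3.25e-12). TEX264, another of these receptors, had 17.6 and 18.3 CPM with MS1943, against 24.8 and 25.0 CPM with DMSO, a 1.39-fold fall (-0.48 ± 0.07, adjusted p = 5.87e-06). In all 3 the groups did not overlap. TEX264 overlaps RAD54L2 on the same strand, with 2124 reads on average for RAD54L2 beside 1379 for TEX264. The mitochondrial receptors did not pass the test. BNIP3L (NIX) had 51.0 and 47.7 CPM with MS1943, against 46.8 and 44.2 CPM with DMSO (0.12 ± 0.06, adjusted p = 0.0978; without DMSO replicate 1, 0.16 and adjusted p = 0.0380). BNIP3 had 26.6 and 25.2 CPM with MS1943, against 24.1 and 25.4 CPM with DMSO (0.07 ± 0.07, adjusted p = 0.416), with overlapping groups.

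**Figure D3:**
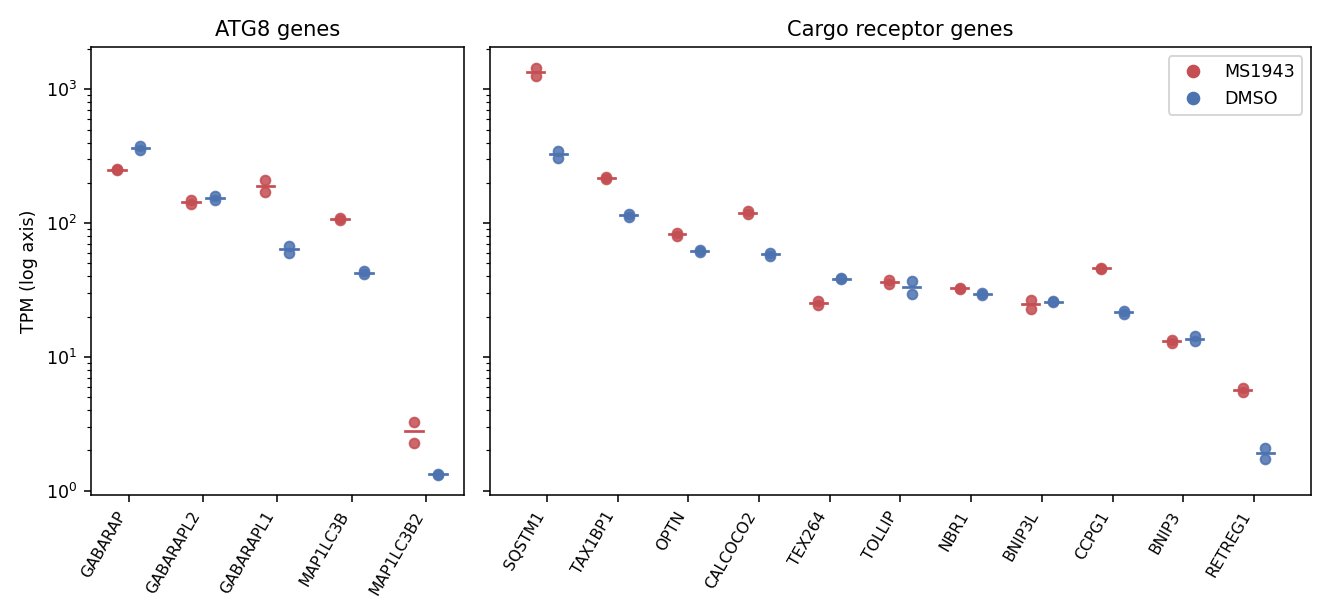
Gene level in TPM (log axis) of the tested ATG8 genes (left) and cargo receptor genes (right) in each library, with points for libraries and a line at each group's mean, ordered by the DMSO mean. SQSTM1 lies at 1261 and 1450.4 TPM with MS1943, against 307 and 349 TPM with DMSO, and TEX264 lies lower with MS1943.

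Per length, the 11 receptor genes summed to 1852 and 2063 TPM in the MS1943 libraries, against 702 and 752 TPM in the DMSO libraries. SQSTM1 held 68.1% and 70.3% of the sum with MS1943, against 43.7% and 46.3% with DMSO. Without SQSTM1 the sum was 592 and 613 TPM with MS1943, against 395 and 404 TPM with DMSO, so the remaining receptors were also higher as a pool. TAX1BP1 ranked second in both groups, at 216 ± 5.1 TPM with MS1943 and 114 ± 4.6 TPM with DMSO (SD, n = 2 each). In DMSO cells OPTN, at 62.0 ± 1.5 TPM, and CALCOCO2, at 58.3 ± 2.7 TPM, followed, with neighbouring values of 60.9 and 63.0 TPM for OPTN and 56.4 and 60.2 TPM for CALCOCO2. With MS1943 CALCOCO2, at 119.9 ± 4.7 TPM, was above OPTN, at 82.4 ± 3.4 TPM. CCPG1 was below TEX264, TOLLIP, NBR1 and BNIP3L in DMSO cells, at 21.6 ± 0.71 TPM, and above all 4 with MS1943, at 46.0 ± 0.63 TPM. RETREG1 remained the least abundant receptor gene, at 5.65 ± 0.25 TPM with MS1943 and 1.91 ± 0.25 TPM with DMSO.

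Promoter windows of 2 receptor genes are shown in the same form, that of SQSTM1 for the size of its change and both of RETREG1 because reads were assigned unequally to the transcripts of its starts. They are SQSTM1 at the RefSeq start with the most matched reads, chr5:179820655-179820954 (plus strand), and RETREG1 at its first start, chr5:16616948-16617247, and its second, chr5:16508949-16509248 (both minus strand, GRCh38.p14).
SQSTM1: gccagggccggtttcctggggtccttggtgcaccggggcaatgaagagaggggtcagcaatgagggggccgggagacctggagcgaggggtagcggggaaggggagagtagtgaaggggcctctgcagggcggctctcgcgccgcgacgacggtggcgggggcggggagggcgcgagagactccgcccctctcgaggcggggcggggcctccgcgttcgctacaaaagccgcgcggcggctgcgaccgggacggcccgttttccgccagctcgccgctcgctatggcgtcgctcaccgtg
RETREG1 first start: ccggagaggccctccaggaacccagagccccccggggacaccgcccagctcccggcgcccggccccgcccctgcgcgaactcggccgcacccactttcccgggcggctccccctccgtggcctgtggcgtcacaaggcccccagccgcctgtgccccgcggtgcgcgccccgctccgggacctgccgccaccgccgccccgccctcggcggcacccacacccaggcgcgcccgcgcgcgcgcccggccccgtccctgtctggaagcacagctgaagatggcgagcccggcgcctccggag
RETREG1 second start: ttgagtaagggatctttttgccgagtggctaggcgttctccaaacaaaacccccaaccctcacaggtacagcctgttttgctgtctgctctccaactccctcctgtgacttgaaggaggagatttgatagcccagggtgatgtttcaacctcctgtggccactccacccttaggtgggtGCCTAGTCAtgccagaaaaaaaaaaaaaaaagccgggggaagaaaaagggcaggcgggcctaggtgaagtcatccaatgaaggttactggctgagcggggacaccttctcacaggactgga
The capitals in the second RETREG1 window mark a TGACNNNGC match on the opposite strand, 71 bases before the start. The SQSTM1 window and the first RETREG1 window held none of the 4 motifs. A transcript was matched to a RefSeq start if its GENCODE 29 start lay within 100 bases of it, here and below. Transcripts matched to the SQSTM1 start shown held 18.7% and 34.1% of the gene's TPM with MS1943, against 17.8% and 28.6% with DMSO. Transcripts that match no RefSeq start by this limit, SQSTM1-201 and SQSTM1-202 among them, held most of the level. Their part was 78.5% and 63.3% of the gene's TPM with MS1943, against 75.5% and 64.3% with DMSO. How far beyond the limit their annotated starts lie is not given here.

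The starts of RETREG1 lie 107999 bases apart. The transcript at the second start, RETREG1-202, had 654 and 484 reads in the MS1943 libraries, against 185 and 208 reads in the DMSO libraries. The 2 transcripts at the first start, RETREG1-201 and RETREG1-204, had 31 and 56 reads with MS1943, against 82 and 38 reads with DMSO, with overlapping groups. The second start thus carried most of the gene's level in all 4 libraries, with 79.5% and 80.3% of the TPM with MS1943, against 64.1% and 78.8% with DMSO. In the transcript test RETREG1-202 rose by 1.80 ± 0.14 (adjusted p = 0.00758; without MS1943 replicate 2, 1.73 and adjusted p = 0.0503), and RETREG1-201 was not called (-0.13, adjusted p = 0.935).

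All 3 MiT/TFE factor genes were called higher, by amounts that differed. MITF, best known as the melanocyte factor (chr3:69739435-69968337, plus strand, hg38), had 18.0 and 19.0 CPM in the MS1943 libraries, against 10.5 and 9.12 CPM in the DMSO libraries (0.92 ± 0.08, adjusted p = 1.80e-08). TFE3 had 103 and 97.9 CPM with MS1943, against 67.4 and 64.9 CPM with DMSO (0.60 ± 0.06, adjusted p = 1.74e-08). TFEB, often called the master regulator of lysosomal genes (chr6:41683978-41736259, minus strand, hg38), had 20.9 and 21.3 CPM with MS1943, against 18.5 and 17.7 CPM with DMSO (0.22 ± 0.07, adjusted p = 0.0105). The rise of TFEB was small, and its call ended with scaling by total reads (0.11, adjusted p = 0.164) and with a correction for transcript length (0.17, adjusted p = 0.108). Leaving out MS1943 replicate 2 (0.19, adjusted p = 0.0638) or DMSO replicate 2 (0.18, adjusted p = 0.0569) ended it too. Per length TFE3 was the most abundant of the 3, with 66.9% and 67.5% of their summed TPM with MS1943, against 62.6% and 63.9% with DMSO. The MITF reads came mainly from the most upstream RefSeq start, whose transcripts had 1068 and 819 reads with MS1943, against 609 and 640 reads with DMSO. The downstream start used in melanocytes had 19 and 14 reads with MS1943, against 1 and 12 reads with DMSO. These factors are controlled mainly by their phosphorylation and location, which these data do not measure.

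At the level of transcripts the spread between replicates was wider, with a common biological coefficient of variation of 0.37 for transcripts beside 0.0478 for genes. Salmon divides reads among overlapping transcripts by a model, and the part of this in the spread was not tested. Transcripts holding at least 10% of their gene's TPM in either group numbered 126 over the 46 genes. Of 121 tested, 40 were called higher, 1 lower and 80 neither, where 6.23% of all 74941 transcripts tested were called higher and 6.21% lower, 12.4% in all. Of the 121, 99 belonged to genes called higher, and all were chosen for a large share of their gene. The 121 were therefore not like all transcripts tested, and their counts are not separate from the gene result. Without 1 of the 4 libraries, whichever it was, 13 to 18 of these transcripts were called higher and 0 lower. The transcripts named below were singled out after their values were seen. SQSTM1-202 had 284 and 340.3 TPM in the MS1943 libraries, against 38.5 and 45.1 TPM in the DMSO libraries (2.96 ± 0.12, adjusted p = 0.00359). SQSTM1-201 had 567 and 454 TPM with MS1943, against 166 and 157 TPM with DMSO (1.72 ± 0.13, adjusted p = 0.00757). The share of SQSTM1-202 in the gene's TPM was accordingly larger, with 22.5% and 23.5% with MS1943, against 12.6% and 12.9% with DMSO, whereas the shares of SQSTM1-201 overlapped between the groups. SQSTM1-213 had 130.1 and 270.0 TPM with MS1943, against 44.1 and 52.6 TPM with DMSO (2.11 ± 0.37, adjusted p = 0.0359), and it was no longer called when either DMSO library was left out, at an adjusted p of 0.155 without DMSO replicate 1 and of 0.129 without DMSO replicate 2.

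Transcripts annotated with a retained intron or as targets of nonsense-mediated decay, which destroys mRNAs with early stop codons, shared no direction. Of 11 described nonsense-mediated decay transcripts, 3 had a larger share of their gene in both MS1943 libraries, 6 a smaller share and 2 overlapping shares. Of 11 with a retained intron these counts were 3, 3 and 5, and of 95 described coding transcripts they were 22, 20 and 53. How often shares lay apart among the transcripts of all genes was not counted. The counts therefore only describe these transcripts and are no result about their classes. ATG4A-204, a nonsense-mediated decay transcript, held 17.9% and 17.4% of ATG4A with MS1943, against 8.73% and 8.50% with DMSO (1.86 ± 0.14, adjusted p = 0.00736). OPTN-208, of the same class, held 16.6% and 15.8% of OPTN with MS1943, against 12.2% and 11.9% with DMSO (0.90 ± 0.15, adjusted p = 0.0331; 0.126 to 0.135 when a library was left out). BECN1-203, a transcript with a retained intron, held 10.2% and 10.6% of BECN1 with MS1943, against 4.86% and 5.26% with DMSO (1.51 ± 0.14, adjusted p = 0.0105; 0.0558 to 0.0625 when a library was left out). TFE3-204, also of the nonsense-mediated decay class, had a smaller share, with 19.9% and 27.0% of TFE3 with MS1943, against 36.4% and 33.5% with DMSO, and its level was not called (-0.01, adjusted p = 0.985). ATG16L1-203, a coding transcript, held 22.7% and 21.7% of ATG16L1 with MS1943, against 13.9% and 12.9% with DMSO (1.14 ± 0.13, adjusted p = 0.0139; 0.0527 to 0.0683 when a library was left out). GABARAP-206, the transcript called lower, held a like share of GABARAP in both groups, at 42.1% and 43.4% with MS1943 and 43.0% and 42.0% with DMSO (-0.46 ± 0.09, adjusted p = 0.0466; 0.0561 to 0.179 when a library was left out).

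**Figure D4:**
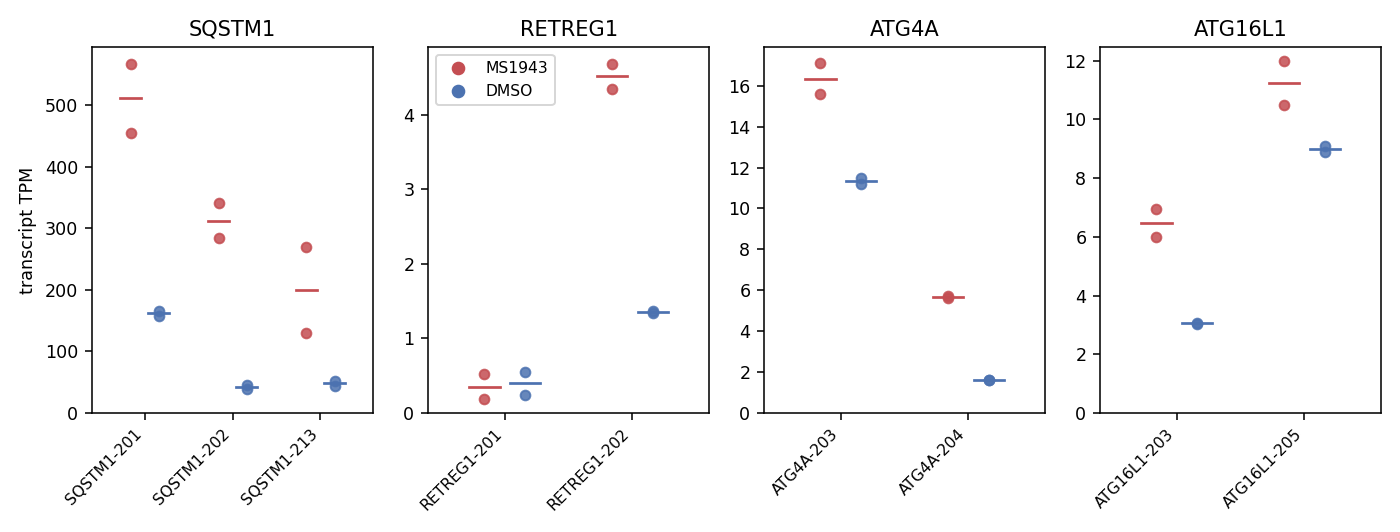
Level in TPM of selected transcripts of SQSTM1, RETREG1, ATG4A and ATG16L1 in each library, with points for libraries and a line at each group's mean. SQSTM1-202 lies at 284 and 340.3 TPM with MS1943, against 38.5 and 45.1 TPM with DMSO, while RETREG1-201 overlaps between the groups.

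Genes around the core pathway, taken as 4 lists of 79 genes in all, had more rises than falls. The lists were chosen with earlier results of these data known, so they are not independent support for the rises above. Of 77 tested, 46 rose, 15 fell and 16 were not called, with a median log2 fold change of 0.28. Scaling by total reads gave 37 higher and 20 lower. The counts of each list stand beside 30.0% higher and 29.4% lower over all genes tested. Among other regulators of autophagosome formation 13 of 19 rose and 4 fell, with a median of 0.38. C9orf72, which forms a complex with SMCR8 and WDR41, had 13.7 and 14.2 CPM in the MS1943 libraries, against 4.15 and 3.83 CPM in the DMSO libraries (1.81 ± 0.10, adjusted p = 9.72e-12). RUBCN (Rubicon), an inhibitor of the pathway that acts on the lipid kinase complex, had 48.4 and 45.2 CPM with MS1943, against 24.5 and 25.3 CPM with DMSO (0.91 ± 0.06, adjusted p = 2.53e-10). TP53INP2, a scaffold that binds ATG8 proteins, had 19.3 and 17.7 CPM with MS1943, against 35.0 and 35.9 CPM with DMSO (-0.93 ± 0.07, adjusted p = 5.13e-10). The strongest calls of this list thus include an inhibitor that rose and a positive factor that fell.

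For fusion of the autophagosome with the lysosome 12 of 19 genes rose and 1 fell, with a median of 0.27, against 9 and 2 with scaling by total reads. PLEKHM1, an adaptor that links RAB7 and the HOPS tethering complex to ATG8 proteins, had 56.9 and 55.7 CPM in the MS1943 libraries, against 25.0 and 25.1 CPM in the DMSO libraries (1.17 ± 0.06, adjusted p = 2.86e-12). YKT6, a SNARE, rose by 0.49 ± 0.05 (adjusted p = 2.68e-07), and VPS11, a HOPS subunit, by 0.42 ± 0.06 (adjusted p = 2.27e-06). STX17, the SNARE of the autophagosome, had 21.8 and 22.1 CPM with MS1943, against 22.3 and 21.7 CPM with DMSO, and was not called (-0.01 ± 0.07, adjusted p = 0.949); it is named for its role and was chosen after its values were seen. The other selective receptors were mixed, with 8 of 17 higher and 5 lower and a median of 0.07. With TMM scaling, 30.0% of all genes tested were called higher and 29.4% lower. Scaling by total reads gave 6 higher and 7 lower on this list. PINK1, the kinase that marks damaged mitochondria, had 330.4 and 321 CPM with MS1943, against 92.7 and 86.1 CPM with DMSO (1.87 ± 0.06, adjusted p = 3.55e-15). BCL2L13, a mitochondrial receptor, rose by 0.97 ± 0.05 (adjusted p = 1.35e-11), while NIPSNAP2, a mitochondrial protein that recruits receptors, had -0.62 ± 0.06 (adjusted p = 1.01e-07). MAP1LC3C, an LC3 gene on the list of other regulators, did not pass the filter on low counts.

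Of the 22 genes of mTORC1 and AMPK, the kinases that restrain and activate ULK1, 13 rose and 5 fell, with a median of 0.30. With scaling by total reads 11 were higher and 6 lower. RRAGC, a Rag GTPase that brings mTORC1 and MiT/TFE factors to the lysosome, had 130.0 and 133 CPM in the MS1943 libraries, against 58.4 and 54.2 CPM in the DMSO libraries (1.22 ± 0.06, adjusted p = 8.51e-13). FLCN, the folliculin subunit of the activator of RRAGC, had 49.9 and 51.4 CPM with MS1943, against 26.8 and 27.4 CPM with DMSO (0.90 ± 0.06, adjusted p = 1.49e-10). FNIP2, its partner, rose by 0.90 ± 0.07 (adjusted p = 1.69e-09). Those that fell were RRAGB, another Rag GTPase (-0.68 ± 0.09, adjusted p = 2.87e-06), MTOR, the mTORC1 kinase (-0.16 ± 0.06, adjusted p = 0.0161), MLST8, TBC1D7 and DEPTOR. The call of DEPTOR ended with a correction for transcript length (-0.28, adjusted p = 0.107), and that of MTOR without MS1943 replicate 2.

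**Figure D5:**
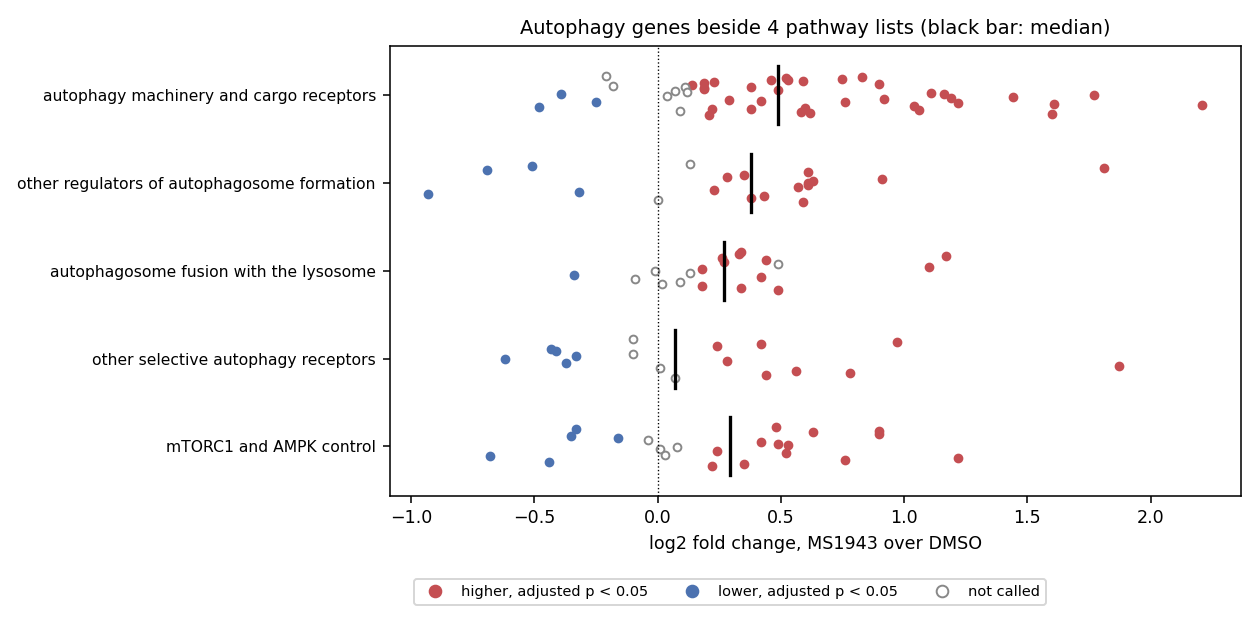
Fitted log2 fold change, MS1943 over DMSO, of each tested gene of the autophagy machinery and cargo receptors and of 4 lists of other pathway genes, with a black bar at each list's median. The medians are 0.49, 0.38, 0.27, 0.07 and 0.30 from top to bottom.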

How the data were processed

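RNA-seq of 4 MDA-MB-468 libraries was used, 2 per treatment, grouped by the treatment label and numbered in accession order. Libraries were poly(A)-selected and made with Illumina's TruSeq kit (v2), per the labels' protocols; this kit keeps no strand information. The authors ran Salmon 0.9.1, with R 3.4.3, DESeq2 and build hg38 also listed, per the submitters' processing notes. Salmon's options were not given in the sources used here. Per the file headers, the authors deposited an estimated count of reads for each transcript, which can be fractional, and its TPM, an abundance scaled by length. Effective lengths from the same deposited files entered only the length correction.

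Of 197653 transcripts, 193505 matched GENCODE 29; the rest held 0.482% to 0.496% of reads and were left out. Estimated counts were summed per gene and rounded, and TPM was summed per gene. Genes were tested in edgeR 4.0.16 (R 4.3.3) by quasi-likelihood F tests after TMM scaling and filterByExpr, with treatment as the only term, on 19358 genes and, separately, 74941 transcripts, with Benjamini-Hochberg adjustment and a threshold of 0.05. Depth was 47564377 to 71378893 reads; replicates correlated at 0.999 and differed by more than counting noise allows, with 6.50 (MS1943) and 7.01 (DMSO) for chi-square over its degrees of freedom. Tested on simulated data with changed genes, the gene test found 43 of 67 at 1.5-fold, 54 of 66 at 2-fold and 63 of 64 at 4-fold. The transcript test found 0 of 63, 4 of 65 and 21 of 62. Only these were changed, of 18858 genes and 70145 transcripts tested in the simulation, while 59.3% of genes were called in the data. Recovery in the data can therefore differ.

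By rule, values in every library are given in each role group for up to 6 called rises and 3 called falls of largest size, for tested genes not called and for the MiT/TFE factors. Of each pathway list, the up to 3 called genes with the smallest adjusted p are named; some list members are not reported here. The genes, lists and tests were chosen with earlier results of these data known. Alternatives were RLE scaling, total reads alone, DESeq2 1.42.0, no filter on low counts, transcript length offsets, summing MAP1LC3B with MAP1LC3B2 and leaving out each library. Promoter sequences are RefSeq's (GRCh38.p14); gene coordinates are GENCODE 29's on hg38, counted from 1.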

Additional observations from a re-analysis of the deposited data

How the results depend on the processing

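Of the 38 called autophagy genes, 29 kept their call in every alternative tried and 9 changed it in at least 1: ATG2B, ATG9A, WIPI2, ATG3, ATG4B, ATG7, MAP1LC3B2, TOLLIP and TFEB. The count of autophagy genes called higher, 35, ran from 28 (total reads alone) to 37 (without DMSO replicate 1). The count called lower, 3, became 5 with total reads alone and 3 to 4 when a library was left out. No log2 fold change of a called gene changed sign. ATG10 and ATG4C passed as lower with total reads alone, at -0.33 and -0.29. Of the 126 described transcripts, 1 was called lower, against 6 with total reads alone and 7 with DESeq2; with a library left out, 13 to 18 were called higher, where all 4 libraries gave 40, and 0 lower. Over all transcripts tested these runs gave 866 to 1604 higher and 962 to 1348 lower, where all 4 libraries gave 4666 and 4653; with 3 libraries the lone sample is assumed to vary like the other group. Leave-one-out runs hold fewer samples by construction; for the changes with scaling and tool the cause was not tested. With 2 libraries a group, small gene changes and most transcript calls lie near the limit of what can be called. No paired analysis was possible because the labels give no replicate numbers that the groups share and do not say what the letters in the titles mean, so a pairing by letter would be a guess.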
